A study of Mus musculus with 9 samples.

Results

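Apolipoproteins are the proteins that coat lipoprotein particles in blood, lymph and brain fluid. The genes described here are Apoa1, Apoa2, Apoa4, Apoa5, Apob, Apoc1, Apoc2, Apoc3, Apoe and Apom. They were picked by gene symbol, with earlier results of these data known. All 10 were on the array, each with 1 probe, among 15096 genes with a single symbol. Their expression was compared between SJL/J and C57BL/6J, which are inbred strains of laboratory mice, in whole brain, kidney and liver. All mice were males aged 8 weeks, and the labels name no treatment, transgene or engineered allele for either strain. On each of 9 spotted arrays, RNA pooled from 5 SJL/J mice carried a far-red dye and RNA pooled from 5 C57BL/6J mice carried an orange dye, with 20 ug of pooled RNA per labelling reaction. Within a tissue, the same 2 pools were hybridised on 3 arrays as technical replicates, always with the same dye for a strain. The spread and the p-values below therefore cover arrays and not mice, and a dye or probe effect of a gene is part of its ratio within a tissue. In a difference between tissues such an effect cancels as far as the probe behaves alike in both.

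Each value is a log2 ratio, SJL/J over C57BL/6J, so that a value above 0 means more RNA in the SJL/J pool and 1 unit is a doubling. The log base and this direction were inferred, as described under the processing, and the direction is likely rather than stated. For Nnt, part of which is missing from the C57BL/6J genome, 9 of 9 arrays were above 0 (mean 0.61 for brain, 0.67 for kidney, 0.48 for liver). The deposited values are ratios only, so the level of a gene in a tissue, and the tissue itself through its marker genes, could not be checked. Tissues were taken from the sample titles, because the tissue tag of the SJL/J channel names brain on all 9 arrays. Correlation between arrays of a tissue over all genes was 0.52 to 0.76 in brain, 0.78 to 0.79 in kidney and 0.77 to 0.79 in liver. Brain replicate 3 stood apart, with a residual SD of 0.36 against 0.20 to 0.28 on the other arrays.

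Liver and intestine make most plasma apolipoproteins. Apob is the structural protein of very low density lipoproteins and chylomicrons, whereas Apoa1 and Apoa2 are the main proteins of high density lipoproteins. The small C apolipoproteins and Apoa5 tune lipoprotein lipase, the enzyme that releases fatty acids from circulating triglyceride, and Apoe is the ligand by which remnants are taken up through receptors of the LDL receptor family. In brain, where Apob-containing particles do not circulate, astrocytes secrete Apoe on particles that resemble high density lipoproteins. Apoe, Apoc1 and Apoc2 lie next to each other on chromosome 7 in the mouse, with Apoc4 between the C genes, and Apoa1, Apoc3, Apoa4 and Apoa5 form a cluster on chromosome 9.

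The strain difference in apolipoprotein RNA depended on the gene and on the tissue rather than running one way. In kidney, Apoc1, Apoc2 and Apom were lower in the SJL/J pool and 0 members were higher by limma's moderated test with Benjamini-Hochberg adjustment over 15096 genes (adjusted p under 0.05), and also 0 at an unadjusted p. In liver, Apoa1 and Apoc2 were higher, and Apoa4, Apoa5 and Apob were lower. In brain, Apoa4 alone of the 10 was higher and 0 were lower (2 at an unadjusted p under 0.05 in limma, Apoc1 and Apom). Of all genes, 27.4% were called in kidney, 24.5% in liver and 17.2% in brain, with 13.5% higher and 13.9% lower in kidney, 10.1% and 14.4% in liver, and 7.55% and 9.61% in brain. The members' count was thus close to the background in kidney (3 of 10), above it in liver (5 of 10) and below it in brain (1 of 10). The liver count depended on each liver array. Without replicate 1, 1 of 10 was called, Apoc2, against 14.4% of all genes. Without replicate 2, Apoa1, Apoa4 and Apob lost their calls and Apoe was newly called. Without replicate 3, Apoa5 and Apoc2 lost theirs. The median ratio of the members was -0.23 in kidney, against 0.03 over all genes, 0.09 in liver, against -0.02, and -0.04 in brain, against 0.01. In kidney all 10 members kept 1 side of 0 on the 3 arrays, against 67.3% of all genes. In liver 6 of 10 did (60.2% of all genes), and in brain 5 of 10 (46.4%). The members' arrays were more spread in liver, with a median SD of 0.34 against 0.16 over all genes, than in kidney (0.12 against 0.13).

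**Figure D1:**
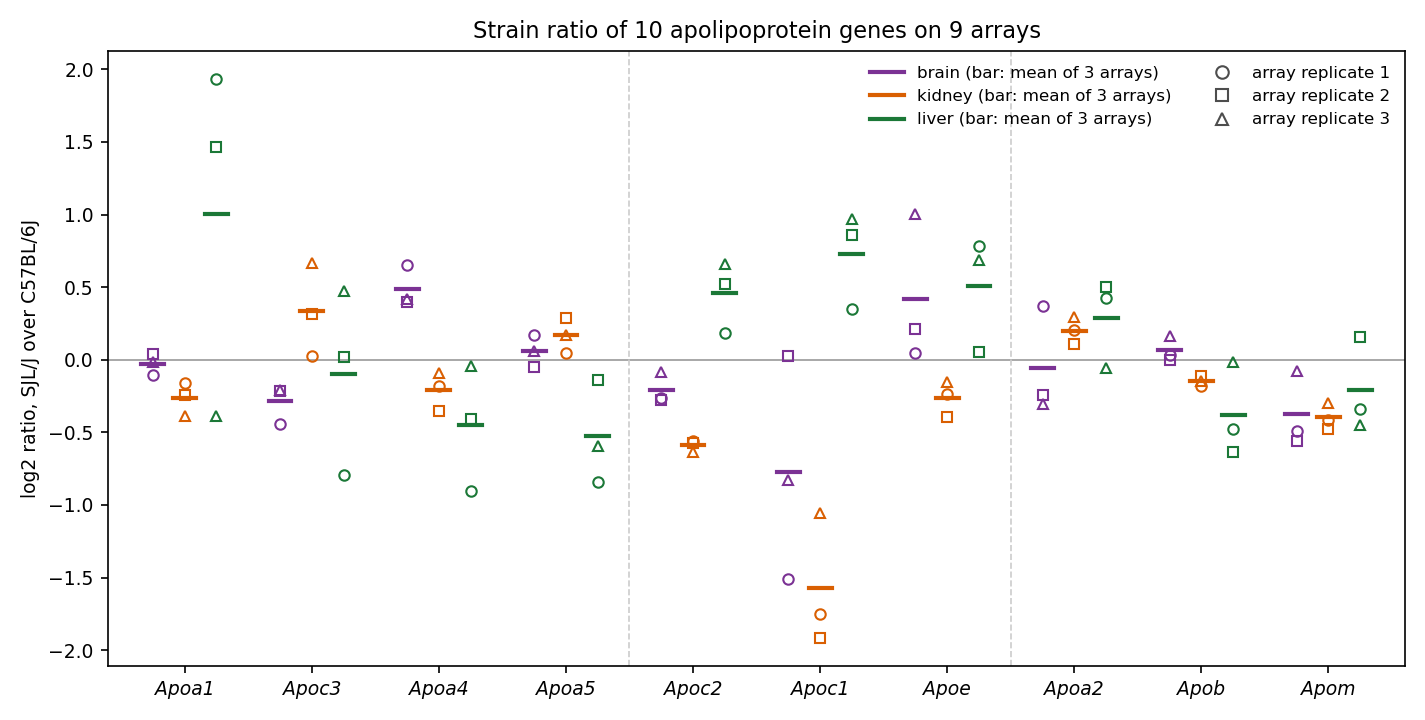
Log2 ratio, SJL/J over C57BL/6J, of the 10 apolipoprotein genes on each of the 9 arrays (points), with the mean of 3 arrays per tissue. Apoc1 and Apoc2 lie below 0 on every kidney array and above 0 on every liver array, and the liver arrays of Apoa1 run from -0.39 to 1.94.

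The reference promoters of the members whose ratios the results turn on are shown here. Apoc2 and Apoa4 had opposite calls in 2 tissues, and Apoa1, Apoa5 and Apob were called in liver alone. For Apoc1 and Apoc3 no sequence is shown. Of the 10 members, 8 had a promoter in RefSeq's table (build GRCm38.p6, whose reference strain is C57BL/6J), in 12 windows of 300 bases, 250 before and 50 after a start. The 250 bases before the start are given 5′ to 3′, and capitals mark AGGTCA, a core element of nuclear receptor sites, TATAAA, the TATA box, or CCAAT, read on either strand.
Apoc2, chr7:19677942-19678191, minus strand: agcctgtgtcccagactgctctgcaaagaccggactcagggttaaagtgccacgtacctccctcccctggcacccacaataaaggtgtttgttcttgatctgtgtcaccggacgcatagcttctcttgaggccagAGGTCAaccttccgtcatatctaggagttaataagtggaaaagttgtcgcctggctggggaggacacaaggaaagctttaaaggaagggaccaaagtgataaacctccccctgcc
Apoa1, chr9:46228380-46228629, plus strand: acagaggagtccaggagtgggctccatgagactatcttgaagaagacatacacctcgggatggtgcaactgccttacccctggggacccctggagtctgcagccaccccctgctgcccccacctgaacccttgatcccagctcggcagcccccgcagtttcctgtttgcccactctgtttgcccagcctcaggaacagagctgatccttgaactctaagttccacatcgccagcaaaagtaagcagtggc
Apoa4, chr9:46240594-46240843, plus strand: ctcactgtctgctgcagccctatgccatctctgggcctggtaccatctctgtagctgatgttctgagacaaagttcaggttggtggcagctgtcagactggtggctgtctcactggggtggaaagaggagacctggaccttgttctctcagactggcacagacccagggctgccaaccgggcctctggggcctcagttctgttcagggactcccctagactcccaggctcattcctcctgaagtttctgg
Apoa5, chr9:46268358-46268607, plus strand: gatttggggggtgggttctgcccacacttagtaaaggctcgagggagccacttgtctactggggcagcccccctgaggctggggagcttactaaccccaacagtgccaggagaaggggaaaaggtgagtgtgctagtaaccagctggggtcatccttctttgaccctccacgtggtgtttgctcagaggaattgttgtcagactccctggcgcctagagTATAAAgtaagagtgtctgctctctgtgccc
Apob, chr12:7977427-7977676, plus strand: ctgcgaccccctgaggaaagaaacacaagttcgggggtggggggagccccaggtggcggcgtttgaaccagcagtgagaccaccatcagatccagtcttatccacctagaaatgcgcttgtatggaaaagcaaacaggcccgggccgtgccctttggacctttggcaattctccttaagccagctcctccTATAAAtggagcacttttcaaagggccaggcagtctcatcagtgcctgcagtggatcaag

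Both strands of the 12 windows were searched for 4 motifs. AGGTCA was in 2 of 12, those of Apoc2 and of Apoa2, against 16.3% of the 32851 windows in the table. In Apoc2 it began 115 bases before the start, and a further copy began at base 43 after it, outside the stretch shown. TATAAA was in 5 of 12 windows (13.6% of all), and 2 of these are overlapping windows of Apoa5 that share 1 site. The site of Apoa5 began 31 bases before the start shown and that of Apob 60 bases before. CCAAT was in 2 of 12 windows (37.4% of all), both of Apoa2. CAAAGTCCA, a form of the Hnf4a site, was in 0 of 12 (0.475% of all). The stretches of Apoa1 and Apoa4 held none of the 4 motifs. These matches describe the reference letters only, and the SJL/J sequence was not used here.

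Apoc1, a small protein that inhibits lipoprotein lipase and hepatic uptake of remnants, had the largest negative ratio of the members. In kidney its 3 arrays read -1.75, -1.91 and -1.06, and in liver they read 0.35, 0.86 and 0.97. Every liver array was above 0 and every kidney array below -1, so the tissues did not overlap. In brain the arrays read -1.51, 0.02 and -0.83, which is the widest spread of any member there. The kidney mean of -1.57 ± 0.45 (SD, n = 3) is a 2.98-fold lower level in the SJL/J pool (adjusted p = 0.00102), the 105th lowest of 15096 genes. The liver mean of 0.73 ± 0.33 fell just short of the threshold (adjusted p = 0.0514), as did the brain mean of -0.77 ± 0.77 (adjusted p = 0.0518). The kidney call was kept in 9 of 9 fits that each left out 1 array, with adjusted p from 0.000348 to 0.0129.

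Apoc2, the activator that lipoprotein lipase needs, had the same pattern on a smaller scale. Its kidney arrays read -0.56, -0.57 and -0.63, and its liver arrays 0.19, 0.52 and 0.66. In brain they read -0.26, -0.28 and -0.08, between the other tissues. Kidney was the most even set, with a mean of -0.59 ± 0.04 (SD, n = 3, adjusted p = 0.00183), a 1.50-fold lower level. The liver mean was 0.46 ± 0.24 (adjusted p = 0.00761), which became 0.36 (adjusted p = 0.0726) without liver replicate 3. The brain mean of -0.21 ± 0.11 was not called (adjusted p = 0.177). Apoc2 was the 1 member called lower in kidney and higher in liver, a combination held by 111 genes or 0.735% of those tested.

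Apoc3, an inhibitor of lipoprotein lipase and of remnant uptake, lies in the chromosome 9 cluster and was not called in any tissue. Its arrays read -0.44, -0.21 and -0.21 in brain, 0.03, 0.32 and 0.67 in kidney, and -0.79, 0.02 and 0.47 in liver. The brain arrays were thus all below 0 and the kidney arrays all above it, while the liver arrays fell on both sides. Its means were -0.29 ± 0.14 in brain (adjusted p = 0.331), 0.34 ± 0.32 in kidney (adjusted p = 0.219) and -0.10 ± 0.64 in liver (adjusted p = 0.745).

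Apoe, the receptor ligand, was above 0 on all brain and liver arrays and below 0 on all kidney arrays, but passed the threshold in none of these tissues. It read 0.04, 0.21 and 1.01 in brain, -0.24, -0.39 and -0.15 in kidney, and 0.78, 0.05 and 0.69 in liver. The brain mean of 0.42 ± 0.51 rested mostly on replicate 3, the array that stood apart (adjusted p = 0.130). The kidney mean was -0.26 ± 0.12 (adjusted p = 0.305) and the liver mean 0.51 ± 0.40 (adjusted p = 0.0601). Without brain replicate 3 in the fit, the liver ratio kept its value of 0.51 and was called (adjusted p = 0.0139).

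Apoa1, the main protein of high density lipoproteins and the activator of lecithin-cholesterol acyltransferase, had the highest mean ratio of the members and also the widest spread. Its liver arrays read 1.94, 1.47 and -0.39. Replicates 1 and 2 were thus well above 0 and replicate 3 below it. The mean was 1.005 ± 1.23 (SD, n = 3, adjusted p = 0.0365), and 99.8% of genes had a smaller SD in liver. Leaving out liver replicate 3 gave 1.70 (adjusted p = 2.59e-05). Leaving out replicate 1 gave 0.54 (adjusted p = 0.290), and leaving out replicate 2 gave 0.77 (adjusted p = 0.208). The liver call was also lost without brain replicate 2, kidney replicate 2 or kidney replicate 3 (adjusted p from 0.0505 to 0.0532). It held in 4 of 9 leave-outs, and was lost with array weights (adjusted p = 0.0511) and with a robust prior (adjusted p = 0.0516). The other tissues were even: the arrays read -0.11, 0.04 and -0.02 in brain, with a mean of -0.03 (adjusted p = 0.965), and -0.16, -0.24 and -0.39 in kidney, with a mean of -0.26 ± 0.12 (adjusted p = 0.564).

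Apoa4, which is made mainly by intestine and coats chylomicrons, had opposite calls in brain and liver. Its brain arrays read 0.65, 0.40 and 0.42, and its liver arrays -0.91, -0.41 and -0.04. The kidney arrays read -0.18, -0.35 and -0.09. All brain arrays were above 0 and all liver and kidney arrays below it, and the liver and kidney arrays overlapped. The brain mean was 0.49 ± 0.14 (SD, n = 3, adjusted p = 0.0336) and the liver mean -0.45 ± 0.43 (adjusted p = 0.0348), whereas the kidney mean of -0.21 ± 0.13 was not called (adjusted p = 0.293). Neither call was robust to single arrays. The brain call was lost without any 1 of the brain arrays (adjusted p from 0.0527 to 0.155), and the liver value became -0.23 (adjusted p = 0.284) without liver replicate 1 and -0.48 (adjusted p = 0.102) without replicate 2.

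Apoa5, a liver protein that promotes triglyceride hydrolysis, was lower in SJL/J liver. Its liver arrays read -0.84, -0.14 and -0.59, all below 0. The kidney arrays, at 0.05, 0.29 and 0.17, were all above 0 and did not overlap with liver, and the brain arrays read 0.17, -0.05 and 0.06. The liver mean was -0.52 ± 0.36 (SD, n = 3, adjusted p = 0.0100), a 1.44-fold lower level. It was -0.37 (adjusted p = 0.0963) without liver replicate 1 and -0.49 (adjusted p = 0.0651) without replicate 3. The means of 0.17 ± 0.12 in kidney (adjusted p = 0.335) and 0.06 ± 0.11 in brain were not called.

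Apoa2, the second protein of high density lipoproteins, was called in no tissue. It read 0.37, -0.24 and -0.31 in brain, 0.21, 0.11 and 0.29 in kidney, and 0.43, 0.50 and -0.06 in liver. All kidney arrays were above 0, while brain and liver had arrays on both sides. The kidney mean was 0.20 ± 0.09 (adjusted p = 0.321) and the liver mean 0.29 ± 0.30 (adjusted p = 0.166).

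Apob, the structural protein of triglyceride-rich lipoproteins, was lower in SJL/J liver. Its liver arrays read -0.48, -0.64 and -0.02, against -0.18, -0.11 and -0.15 in kidney and 0.03, -0.00 and 0.16 in brain. Liver replicates 1 and 2 were below all other arrays of the gene, and replicate 3 lay near 0. The liver mean was -0.38 ± 0.32 (SD, n = 3, adjusted p = 0.0301), a 1.30-fold lower level, and it was not called without replicate 1 (-0.33, adjusted p = 0.158) or without replicate 2 (-0.25, adjusted p = 0.212). In kidney the mean was -0.15 ± 0.03 (adjusted p = 0.361), and in brain it was 0.06 ± 0.09.

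Apom, a carrier of sphingosine 1-phosphate on high density lipoproteins that liver and kidney tubule make, had means below 0 in every tissue. Its arrays read -0.41, -0.48 and -0.29 in kidney, -0.49, -0.56 and -0.07 in brain, and -0.34, 0.16 and -0.45 in liver. Liver replicate 2 was the 1 array of 9 above 0. The kidney mean of -0.40 ± 0.09 (SD, n = 3) passed narrowly (adjusted p = 0.0423), and the call was lost without any 1 of the kidney arrays (adjusted p from 0.0963 to 0.181). The kidney call was also lost without liver replicate 1 (adjusted p = 0.0535) and with a replicate block in the fit (adjusted p = 0.0642). After subtraction of line and column medians the kidney mean was -0.21 (adjusted p = 0.253). The brain mean was -0.37 ± 0.26 (adjusted p = 0.0703) and the liver mean -0.21 ± 0.32 (adjusted p = 0.269). Tested on the 3 tissue means, the ratio shared by all tissues was -0.33 for Apom (adjusted p = 0.246), and 0 of 10 members had a called shared ratio, against 0.709% of all genes. At an unadjusted p under 0.05 in limma, 1 of 10 had one, Apom, and no share of all genes is given at that threshold.

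The dependence of the strain ratio on tissue was tested directly. By the moderated F-test in limma, 4 of 10 members depended on tissue, against 22.1% of all genes. These were Apoc2 (adjusted p = 0.00202), Apoc1 (adjusted p = 0.00329), Apoa4 (adjusted p = 0.0155) and Apoa5 (adjusted p = 0.0282). Between liver and kidney 3 members differed, 2 with the higher ratio in liver (8.52% of all genes) and 1 with the lower (11%), against 19.5% of genes either way. Between liver and brain 3 differed as well, 2 higher in liver (5.61%) and 1 lower (6%), against 11.6%. Between brain and kidney 0 differed, against 5.47% of all genes (2.5% higher and 2.97% lower in brain). At an unadjusted p under 0.05 in limma 5 members did, 4 with the higher ratio in brain and 1 with the lower. No share of all genes is given at that unadjusted threshold, so the 5 cannot be set against a background.

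Apoc1 and Apoc2 were the members with the largest called differences. The ratio of Apoc1 was higher in liver than in kidney by 2.30 (95% interval 1.54 to 3.06, adjusted p = 0.00157), which is 4.92-fold and the 38th highest difference of 15096. That of Apoc2 was higher by 1.05 (0.73 to 1.36, adjusted p = 0.000856), or 2.06-fold. Both differences were called in 9 of 9 fits with 1 array left out and in 8 of 8 other settings. Against brain, the liver ratio was higher by 1.50 for Apoc1 (0.74 to 2.26, adjusted p = 0.0188) and by 0.67 for Apoc2 (0.35 to 0.98, adjusted p = 0.0135). The Apoc1 difference from brain was 1.43 (adjusted p = 0.0641) without liver replicate 2 and 1.38 (adjusted p = 0.0636) without liver replicate 3.

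Apoa4 and Apoa5 differed the other way, whereas Apoa1 and Apoa2 had no called difference. The ratio of Apoa5 was lower in liver than in kidney, with a difference of -0.69 (95% interval -1.07 to -0.31, adjusted p = 0.0192), and that of Apoa4 was lower in liver than in brain, with a difference of -0.94 (-1.37 to -0.51, adjusted p = 0.0118). The Apoa4 difference was called in 9 of 9 leave-outs. The Apoa5 difference was lost without kidney replicate 2 (-0.63, adjusted p = 0.0669), kidney replicate 3 (-0.69, adjusted p = 0.0557), liver replicate 1 (-0.53, adjusted p = 0.0684) or liver replicate 3 (-0.66, adjusted p = 0.0597). Just outside the threshold were the liver minus kidney differences of Apoe (0.77, 0.21 to 1.32, adjusted p = 0.0543) and Apoa1 (1.27, 0.30 to 2.24, adjusted p = 0.0642), the liver minus brain difference of Apoa5 (-0.58, adjusted p = 0.0514) and the brain minus kidney difference of Apoa4 (0.70, adjusted p = 0.0621). Without liver replicate 3, the Apoa1 difference from kidney was 1.97 (adjusted p = 0.000118). Array values did not overlap between liver and kidney for 4 of 10 members (46.7% of all genes), between liver and brain for 5 (30.3%) and between brain and kidney for 6 (29.4%).

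**Figure D2:**
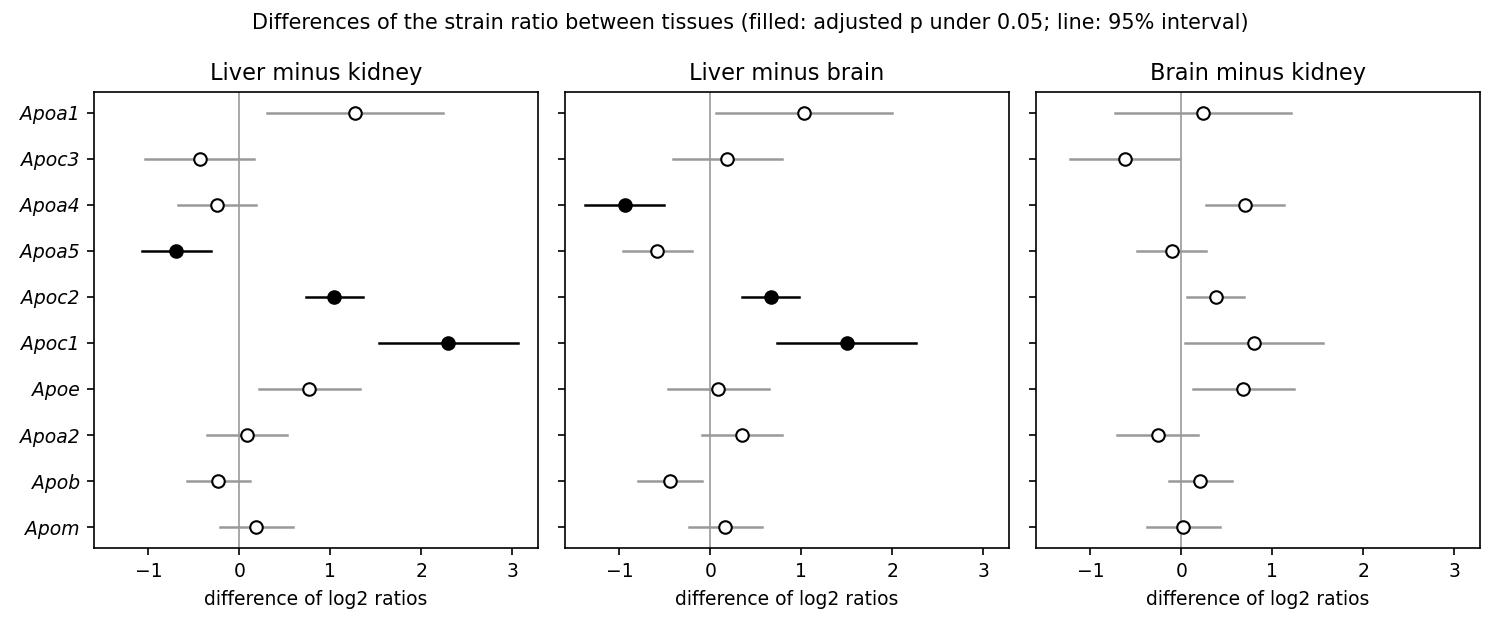
Differences of the log2 strain ratio between tissues for the 10 members, with 95% intervals from the fit on 9 arrays. Apoc1 and Apoc2 lie above 0 in liver minus kidney (2.30 and 1.05) and in liver minus brain (1.50 and 0.67), and Apoa5 and Apoa4 lie below 0 in 1 of these each (-0.69 and -0.94).

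None of the measured genes beside Apoc1 and Apoc2 was called lower in kidney. Apoc4, which lies between them and encodes a minor liver apolipoprotein, was lower in liver (-0.46 ± 0.17, adjusted p = 0.00754) and in brain (-0.49 ± 0.16, adjusted p = 0.00895), with -0.16 in kidney (adjusted p = 0.267). In and beside the chromosome 7 cluster, 11 genes that are not members were measured. In kidney 4 of the 11 were higher and 0 lower, against 13.5% and 13.9% of all genes. The 4 were Relb (1.05), a subunit of NF-kappa B, Bcam (0.88), a laminin receptor, Clptm1 (0.51) and Cblc (0.33). The range of the 11 in kidney ran from -0.16 to 1.05, so none lay as low as Apoc2 or Apoc1. In liver, where 10.1% of all genes were higher and 14.4% lower, Relb (0.51) and Cblc (0.42) were higher and Apoc4 was the 1 gene lower. The kidney calls of Clptm1 and Cblc and the liver call of Relb were each lost without any 1 array of the tissue. Apoc4 was not called in liver without replicate 1 (-0.38, adjusted p = 0.0685) or in brain without replicate 2 (-0.49, adjusted p = 0.0510), and Cblc was not called in liver without replicate 1 or 2. Of the 10 genes beside the chromosome 9 cluster, Sidt2 (0.32) and Cadm1 (0.34) were higher in liver and 0 were lower. Neither was called without liver replicate 1, and Sidt2 read 0.11 (adjusted p = 0.445) after subtraction of line and column medians. Beside Apob, whose own ratio was below 0 in liver, 2 of 10 genes were higher there and 0 lower, 2810032G03Rik (1.26) and Atad2b (0.34), the latter not called without liver replicate 1 (0.22, adjusted p = 0.307) or any of 5 other arrays. Beside Apom, 1 of 10 genes was called in kidney, Ltb, which was higher (0.64), but not without kidney replicate 1 (0.45, adjusted p = 0.0734).

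**Figure D3:**
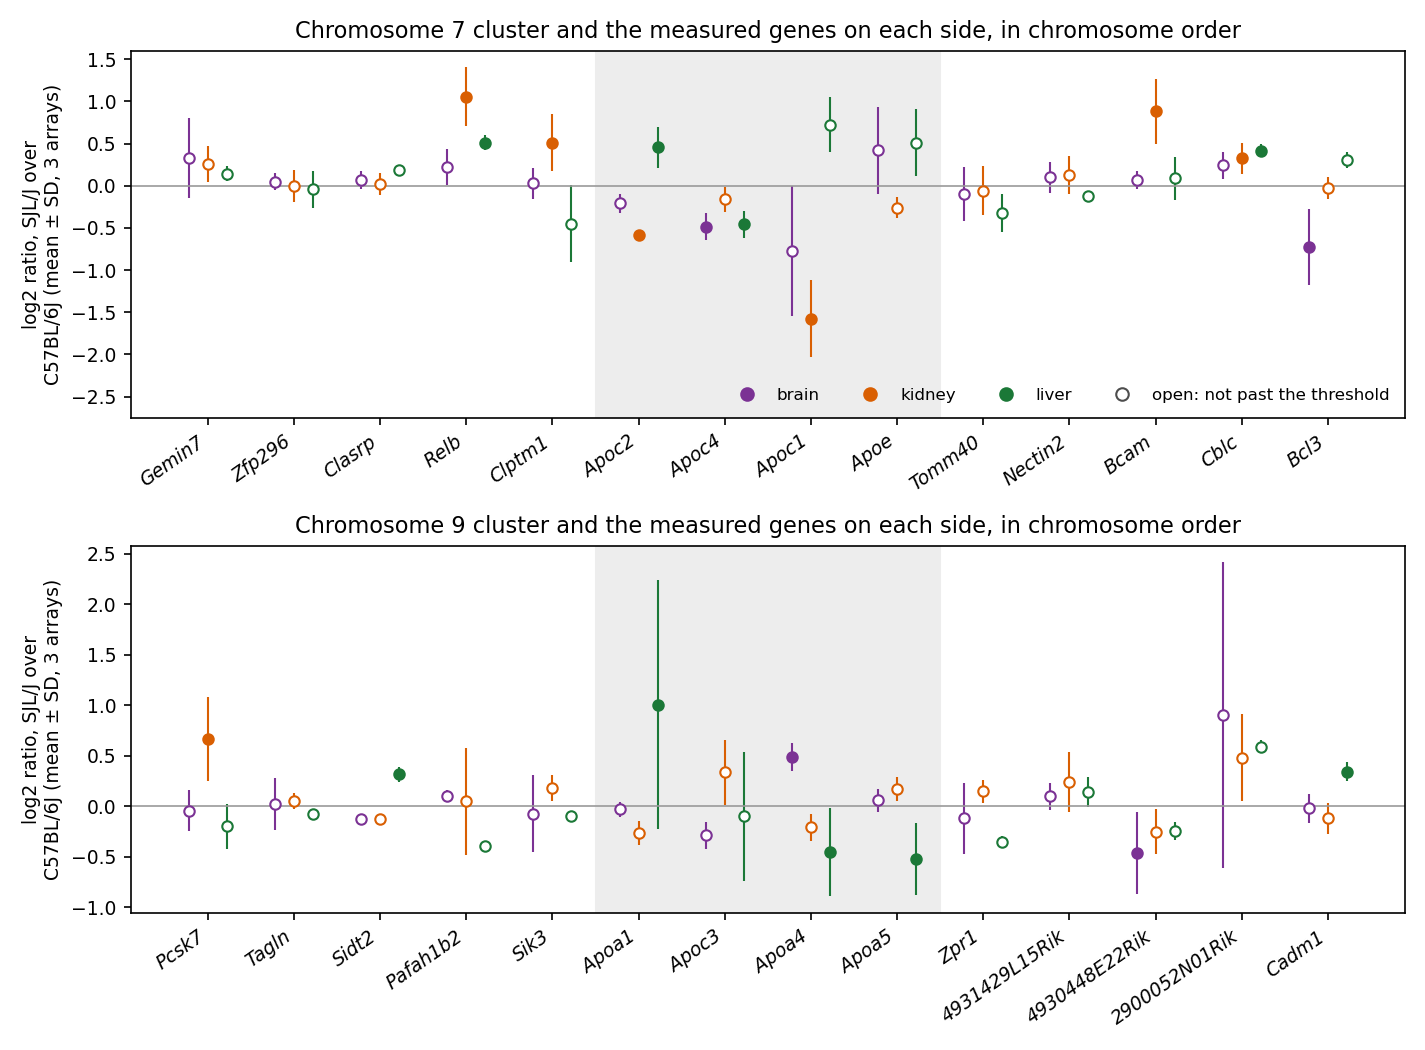
Mean log2 ratio ± SD of 3 arrays for the clusters on chromosome 7 and chromosome 9 (shaded) and the 5 measured genes on each side, in chromosome order and not to scale. Filled points passed the threshold: Apoc1 (-1.57) and Apoc2 (-0.59) are low in kidney where Relb, Clptm1, Bcam and Cblc are high.

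Genes of lipoprotein assembly, the process that loads lipid onto Apob, were lower in SJL/J liver for 13 of those measured, and the count depended on single arrays. Of 17 measured genes of lipoprotein assembly and secretion, 13 fell, 0 rose and 4 did not pass, with a median of -0.56 against -0.02 over all genes, of which 14.4% were called lower. Plin2, a lipid droplet coat protein, fell by 1.75 ± 0.42 (SD, n = 3, adjusted p = 1.42e-05). Mttp, the microsomal triglyceride transfer protein without which Apob is not secreted, fell by 1.33 ± 0.46 (adjusted p = 0.00051). Ces3a, a carboxylesterase, fell by 1.14 ± 1.08 (adjusted p = 0.0132), but read -0.65 (adjusted p = 0.117) after subtraction of line and column medians and -0.74 (adjusted p = 0.124) without liver replicate 1 or -0.93 (adjusted p = 0.102) without replicate 3. Sar1b, the GTPase of the vesicles that carry chylomicrons, fell by 1.09 ± 0.19 (adjusted p = 0.000225). Sar1b, Dgat2 and Apobec1 sit at probe numbers that are multiples of 8, where the median ratio over all probes was -0.19 in liver and -0.36 in kidney, against 0.03 and 0.06 at other numbers. None of the 10 members sits there. Sar1b also fell in kidney and brain (by 1.43 and 1.12). After subtraction of line and column medians, 8 of the 17 genes were lower in liver, and the count was also 8 without liver replicate 1 and 8 without liver replicate 3. In kidney 3 of 17 were lower and 2 higher, near the background, and 0 were higher after the same subtraction, where Dgat1, an enzyme of triglyceride synthesis, read 0.27 (adjusted p = 0.0532) against 0.49. In brain 4 were lower and 0 higher, of which 1 was lower with only the brain arrays fitted.

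**Figure D4:**
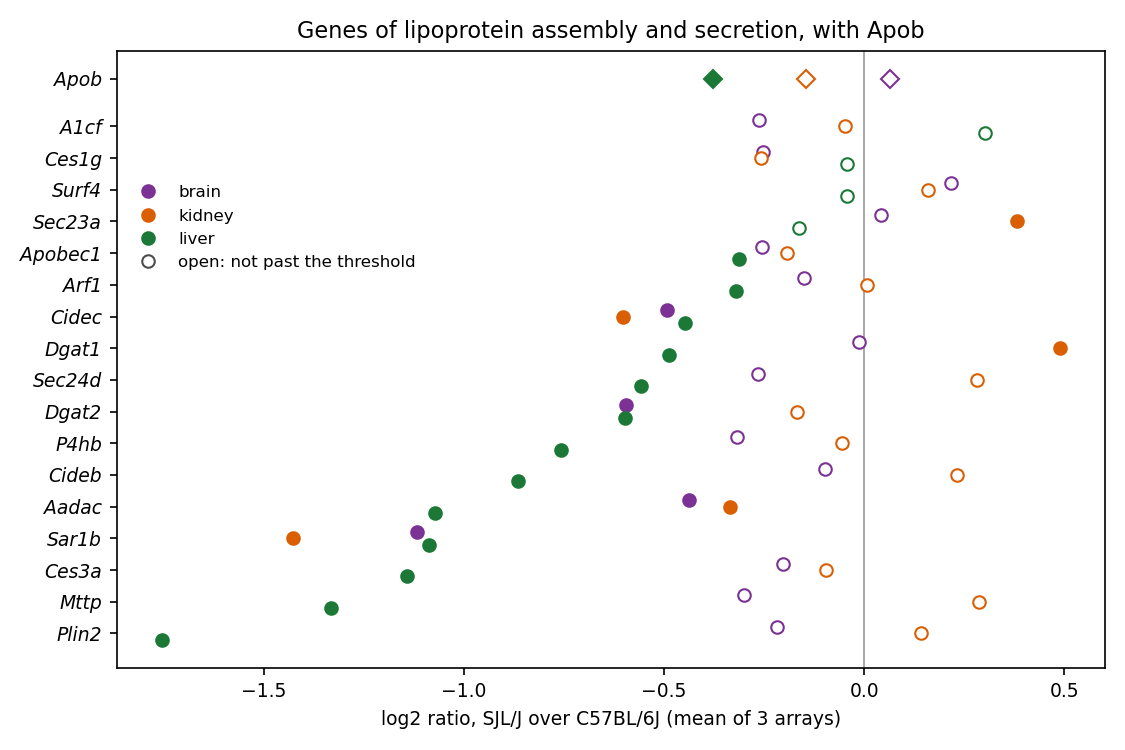
Mean log2 ratio of Apob and of 17 genes of lipoprotein assembly and secretion in each tissue, ordered by the liver value; filled symbols passed the threshold. In liver 13 of 17 lie below 0 and pass, from Apobec1 at -0.31 to Plin2 at -1.75, beside Apob at -0.38.

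Apolipoproteins outside the 10 members were measured for 14 genes, of which 3 were called higher and 1 lower in liver (10.1% and 14.4% of all genes). The higher ones were serum amyloid A genes, acute phase proteins carried on high density lipoproteins. Saa3 read 1.98 ± 0.36 and Saa2 1.47 ± 0.49, and both kept their call and direction in every setting run at gene level. Saa1 read 1.22 ± 0.43 but turned to -1.26 (adjusted p = 0.00134) after subtraction of line and column medians, so its direction is not settled, and 2 genes of the list were then higher and 3 lower. Saa4 read -0.24 and was not called. Near-identical copies of these genes may share probes. In kidney Apoo, a mitochondrial protein, rose (0.70 ± 0.23). Apof, an inhibitor of lipid transfer, read -0.49 ± 0.25 (adjusted p = 0.0193), but -0.19 (adjusted p = 0.318) after that subtraction, and it was not called without kidney replicate 2 or without kidney replicate 3.

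In liver the shares of receptor and plasma enzyme genes called were near the share of all genes. Of 18 receptor and uptake genes, 2 rose and 2 fell in liver, with a median of -0.09, where 24.5% of all genes were called. Lsr, the lipolysis-stimulated receptor, rose (0.60 ± 0.21), as did Lrp8, an Apoe receptor (0.55 ± 0.07), which also rose in brain (0.52 ± 0.05). Msr1, a macrophage scavenger receptor, fell by 0.75 ± 0.16 in liver and by 0.65 ± 0.11 in kidney, the latter not called without kidney replicate 2 (adjusted p = 0.0561). Of 14 lipases and remodelling enzymes, 1 rose and 2 fell in liver, where Pon1, an esterase carried on high density lipoproteins, fell by 1.28 ± 0.44 (adjusted p = 0.000133). In kidney 5 of these rose and 1 fell, against 13.5% and 13.9% of all genes, and 2 rose without kidney replicate 1 and without kidney replicate 2. Lcat, the enzyme that Apoa1 activates, read 0.57 ± 0.29 there and was not called without replicate 1 (0.45, adjusted p = 0.100) or replicate 2 (0.52, adjusted p = 0.0743). In brain Lpl, the lipase that Apoc2 activates, was the 1 gene of the list called, at 1.02 ± 0.04 (adjusted p = 4.01e-05). Of 11 efflux genes, 4 fell and 2 rose in liver, and 2 fell without liver replicate 3 or after subtraction of line and column medians. Among them Cyp27a1, a sterol hydroxylase, fell by 0.57 ± 0.06, and Abcb4, the phospholipid exporter of bile, by 0.91 ± 0.74, or by 0.53 without liver replicate 2.

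Transcription factors known to act on apolipoprotein genes were called lower in liver for 8 of 33 and higher for 3, against 14.4% and 10.1% of all genes, with a median of -0.16. The number lower was 5 without any 1 of the liver arrays, and 5 after subtraction of line and column medians. Ppara, the fatty acid sensor of hepatocytes, fell by 1.43 ± 0.25 (adjusted p = 9.86e-06), Cebpa by 0.82 ± 0.35 and Rora by 0.77 ± 0.47, the last by 0.51 without liver replicate 2. Rxrb, a partner of nuclear receptors, rose by 1.43 ± 0.47. Hnf4a, the main hepatocyte regulator of the clusters, read -0.02 and was not called. Of 25 measured targets of Ppara, 17 fell and 0 rose in liver, with a median of -0.95, and 12 fell after subtraction of line and column medians. In kidney 5 of these 25 rose and 0 fell, against 13.5% of all genes higher, and 1 rose without kidney replicate 2 and without kidney replicate 3. Of the factors, 6 fell and 4 rose in kidney, near the 27.4% of all genes called, 2 fell without probes at multiples of 8, and 1 rose without kidney replicate 1. Esrra, an orphan nuclear receptor, fell there by 1.06 ± 0.17.

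Markers of the cell types that make apolipoproteins were called in several comparisons, some at shares near those of all genes. The shares of all genes called higher and lower were 10.1% and 14.4% in liver, 13.5% and 13.9% in kidney, and 7.55% and 9.61% in brain. In bulk tissue, fewer cells of a type and less RNA per cell cannot be told apart. Of 21 measured hepatocyte markers, 11 rose and 0 fell in liver, with a median of 0.51 and a range from -0.37 to 1.14, beside the higher Apoa1 and Apoc2 and the lower Apoa4, Apoa5 and Apob. Over 16 other settings 8 to 13 of these markers rose in liver and at most 1 fell, with 8 rising without liver replicate 2. Alb, albumin, read 1.06 ± 0.30. In kidney 4 of these 21 fell and 0 rose, among them Serpina1a (-1.10 ± 0.56) and Serpina1c (-0.72 ± 0.44, and -0.47 without kidney replicate 3), beside the lower Apoc1 and Apoc2. Of the 19 left without probes at multiples of 8, 2 fell. Of 18 macrophage markers, 7 rose and 2 fell in kidney, led by Adgre1 (0.92 ± 0.28), and 5 rose and 0 fell in liver. Macrophages are known to express Apoc1 and Apoe, which read -1.57 and -0.26 in kidney and 0.73 and 0.51 in liver. Of these values only that of Apoc1 in kidney was called. With 1 kidney array left out, 3 or 4 macrophage markers rose in kidney, and in liver 3 rose without liver replicate 1 and 2 without replicate 2. Of 17 proximal tubule markers, 4 rose and 1 fell in kidney, beside Apom, near the 27.4% of all genes called, and 1 rose without kidney replicate 1. Of 17 intestinal markers, 2 rose and 3 fell in liver (1 fell without any 1 of the liver arrays), with a median of -0.12, beside Apoa4. Fabp2, a fatty acid binding protein of enterocytes, read -1.48 ± 0.08, while Cdx1 (0.46) and Mep1b (0.33) were the 2 higher ones. Cdx1 was not called without liver replicate 1, and Mep1b was not called without any 1 of the liver arrays. In brain 1 of 15 astrocyte markers fell and 0 rose, and 0 of 8 choroid plexus markers were called, beside Apoe. The part of these markers in the results on the members was not tested.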

How the data were processed

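The deposited table gave 1 log2 ratio per spot and array (23040 spots, 9 arrays, 0 missing values). Per the submitters' processing notes the authors used R 2.0.0 and limma. The log2 base is limma's convention, and the direction, SJL/J over C57BL/6J, comes from the titles, the dyes and red over green. The 9 arrays held identical sorted values, that is, their distributions were made equal before deposit. Background correction is not given in the sources used here. Intensities were not used here, so dim spots were not filtered.

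Probes were named through the platform annotation: 16874 carried a single symbol, 134 several and 6032 none. Probes of a gene were averaged. A limma 3.58.1 model (lmFit and eBayes, R 4.3.3) with 1 coefficient per tissue was fitted to 15096 genes, with 6 residual and 5.17 prior degrees of freedom. Tissue ratios, their differences, the F-test for tissue dependence and the ratio shared by 3 tissue means were tested two-sided, with Benjamini-Hochberg adjustment over all genes and a threshold of 0.05. The fit was tested on simulated data.

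The members and lists were chosen with earlier results of these data known. The text names all members, Nnt, up to 4 called genes with the largest ratios per list and tissue, called genes within 5 measured genes of a member, and, for members called in liver, up to 3 genes of nearest profile. Other list genes named (Hnf4a, Apobec1) were chosen after their values were seen. Alternatives were position medians, probes at multiples of 8 left out, single probes, centring, own arrays only, array weights, a robust prior, a replicate block and each array left out.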

Additional observations from a re-analysis of the deposited data

Results flagged for a closer look

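The strain ratio differed between tissues, by a test of the difference itself, in 6 comparisons of members. Apoc1 was higher in liver than in kidney by 2.30 and higher in liver than in brain by 1.50. Apoc2 was higher in liver than in kidney by 1.05 and higher in liver than in brain by 0.67. For Apoa5 the difference of liver from kidney was -0.69, and for Apoa4 the difference of liver from brain was -0.94. The Apoc1 and Apoc2 comparisons share the liver arrays, and so do the Apoa4 and Apoa5 comparisons.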

How the results depend on the processing

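Over all settings, 944 member values kept their side of the threshold, 41 passed it newly, 35 no longer passed, and none reversed where a call was made. Some values that were not called changed sign, such as Apoc3 in liver, which ran from -0.39 to 0.25 over the leave-outs. Calls of Apoc1 and Apoc2 in kidney, their liver minus kidney differences, and the liver minus brain differences of Apoc2 and Apoa4 held in every setting run. In brain 2 members were called with medians of lines and columns removed (14.7% of all genes), with centring (17.2%) and with the replicate block (14.9%). With only the brain arrays 0 were (3.07% of all genes). In kidney 5 were called with only the kidney arrays, where 35.6% of all genes were called, against 27.4% as reported. With only the liver arrays in limma, Apoa1 (adjusted p = 0.107), Apoa4 (adjusted p = 0.0811) and Apob (adjusted p = 0.0779) were no longer called in liver. Apoc1 (adjusted p = 0.0109) and Apoe (adjusted p = 0.0492) were newly called there. Between brain and kidney 1 was called with only the arrays compared (1.93% of all genes) and with array weights (17.3%). Of the shared ratios, 1 was called with the 9 arrays as single values. With 1 array left out, calls ranged from 0 to 2 in brain, 2 to 3 in kidney, 1 to 6 in liver, 2 to 4 for liver minus kidney, 3 to 4 for liver minus brain, 0 to 1 for brain minus kidney, 3 to 5 for tissue dependence and 0 to 1 for the shared ratio, whose leave-outs were added after seeing the data. Over all genes, brain calls ranged from 463 with only the brain arrays to 3127 without brain replicate 3 (2590 as reported), and brain minus kidney calls from 217 without brain replicate 2 to 2606 with array weights (825 as reported). Kidney calls ran from 2170 without kidney replicate 1 to 6153 with array weights (4138 as reported). Liver calls ran from 2179 without liver replicate 1 to 4654 without brain replicate 3 (3700 as reported). Liver minus kidney calls ran from 1582 to 4444 (2951 as reported), and liver minus brain calls from 993 to 2081 (1753 as reported). The causes were not tested. Replicate numbers did not pair the arrays: deviations of same-numbered arrays correlated at -0.08 to 0.05, and those of other numbers at -0.12 to 0.15. The replicate block gave 5 called liver minus kidney differences against 3, with 17.1% of all genes called against 19.5%. The F-test with only the arrays compared was not run. With all spots tested singly, the calls numbered 4660 (brain), 6681 (kidney) and 5805 (liver), of more features. With 3 arrays per tissue of 1 pair of pools, precision covers the arrays only.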

Other observations

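For the members called in liver, the genes with the most similar values over the 9 arrays were found by the mean absolute difference of the log2 ratio. Those nearest to Apoc2 were Tmem114 (0.13), Nol3 (0.15) and Cpa3 (0.15). For Apoa5 they were Itgal (0.10), Ppp4r1 (0.10) and Fmod (0.11), and for Apob Rnft1 (0.09), Slc25a54 (0.10) and Hat1 (0.10). For Apoa4 they were Iqgap1 (0.17), 1700021L23Rik (0.18) and Klb (0.18). Apoa1 had no gene as close, with Ddx39b (0.26), Defb29 (0.27) and Ushbp1 (0.29), each higher in liver at 1.43, 1.37 and 1.36. Pancreatic acinar markers, listed as another possible cell type, included Gp2 at 3.79 ± 0.25 in liver, where 4 of 17 rose and 2 fell.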
